A study of Mus musculus with 18 samples.

Results

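The circadian clock genes described here were 10 genes chosen by symbol, of 48440 genes in the table: Arntl, Clock, Per1, Per2, Per3, Cry1, Cry2, Nr1d1, Nr1d2 and Dbp. RNA was sequenced from the brains of Diversity Outbred mice, a stock bred from several founder strains so that every animal is genetically unique. The 18 libraries formed 6 groups of 3, high and low performers in each of prefrontal cortex (PFC) and the tissues that the labels name MDTH and HPF. The series concerns short-term memory, and the labels do not name the test that set high apart from low. Neither treatment, age, sex nor the time of tissue collection is given in the labels, and libraries of a group are not stated to be different animals, so the p-values reflect library-to-library spread only.

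In mammalian cells the proteins of Arntl (BMAL1) and Clock pair and switch on genes that carry E-box sequences, among them the Period genes, the Cryptochrome genes, Nr1d1, Nr1d2 and Dbp. PER and CRY proteins then repress that pair, while the REV-ERB proteins made from Nr1d1 and Nr1d2 repress Arntl, so that the messages of Arntl and of Dbp, Per and Nr1d1 rise and fall in roughly opposite phases over a day in most tissues. The forebrain keeps such rhythms under the lead of the suprachiasmatic nucleus, and the collection time of a brain therefore bears on every gene in the loop.

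The name of each library carries a number, and some numbers recur across tissues: 44, 88 and 165 are the high performers of all 3 tissues, 130 is a low performer in PFC and MDTH, and 163 is one in MDTH and HPF. Libraries of one number deviated together from their group means in every pair (Pearson r from 0.346 to 0.611 over 18254 genes), although no label says that a number is an animal. Estimated depth was 41156227 to 48838302 reads in PFC and MDTH and 76705451 to 88633852 in HPF, and the lane-like codes in the column names also set HPF apart. Comparisons of HPF with the other tissues therefore cannot be told apart from depth or sequencing lane. By their choroid plexus and ependymal markers, 4 libraries stood apart. The summed level of 6 choroid plexus and ependymal markers was 146698 in PFC high 1 (number 44), 124762 in PFC low 2, 76111 in PFC low 3 and 162093 in HPF high 2 (44), against 1921 to 11200 normalized counts in the other 14. Summed cortical markers reached 153730 to 170160 in PFC, thalamic markers 123210 to 244120 in MDTH and hippocampal markers 47302 to 88561 in HPF, each above both other tissues. The summed thalamic markers in MDTH also separated the groups, at 212270 to 244120 in high and 123210 to 164400 in low performers. Of the 10 thalamic markers 5 were higher in high performers (Prkcd by a log2 difference of 1.94), 1 was lower (Tcf7l2, -0.49, limma adjusted p = 0.0186) and 4 did not pass. Habenular markers there ran from 1695 to 2904 in high and from 2308 to 16060 in low performers. A list of 8 markers of the suprachiasmatic nucleus summed to 91.3 to 167 in high and 486 to 520 in low performers. In MDTH 5 of the 8 were tested, and 2 passed, Grp and Lhx1, both lower in high performers. The same list summed to 2714 to 4872 in PFC and 413 to 1348 in HPF, so its sum is no measure of that nucleus here. In HPF hippocampal markers summed to 63837 to 88561 in high and 47302 to 50707 in low performers, and cortical markers to 78337 to 93403 and 111270 to 128210. Choroid plexus and ependymal markers there summed to 7982 to 162093 in high and 4354 to 6340 in low performers. Endothelial markers in HPF summed to 4848 to 10067 and 4055 to 4844, and the suprachiasmatic list to 798 to 1348 and 413 to 779. Cortical markers in MDTH separated the groups too, at 28400 to 37479 in high and 13980 to 25667 in low performers. In PFC thalamic markers summed to 4193 to 4562 in high and 4856 to 7164 in low performers. Hippocampal markers there summed to 21035 to 23869 and 17873 to 19887, and microglial markers to 9786 to 11806 and 12235 to 15052. The other marker sums overlapped between the PFC groups, those of cortical markers among them. The style of the library names differed between high and low performers in PFC and MDTH. In HPF the letters after the number differed (FF and EF in high, BA and BD in low performers), and the groups shared lane-like codes only in part. Performance in all 3 tissues therefore cannot be told apart from what these names and codes may record.

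Promoter sequence is shown first for the 4 members whose order among the numbers 44, 88 and 165 was the same in all 3 tissues, since clock proteins act on one another's genes through such motifs. RefSeq windows of 300 bases (250 before and 50 after a start site, build GRCm38.p6) were found for 9 of the 10 members, 13 windows in all. The stretches are chr11:69098723-69098848 on the plus strand for Per1, chr10:85185065-85185174 on the minus strand for Cry1, chr4:151044803-151044915 on the minus strand for Per3 and chr7:113207530-113207558 on the plus strand for Arntl, each written 5′ to 3′. Capitals mark the E-box CACGTG in Per1 and Cry1, the D-box TTATGTAA in Per3 and the ROR element core TAGGTCA in Arntl.
Per1: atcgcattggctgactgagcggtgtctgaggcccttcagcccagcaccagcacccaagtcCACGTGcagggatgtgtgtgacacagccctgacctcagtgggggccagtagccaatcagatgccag
Cry1: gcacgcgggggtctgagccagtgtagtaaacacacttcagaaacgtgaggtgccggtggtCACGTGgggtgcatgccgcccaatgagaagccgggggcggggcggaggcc
Per3: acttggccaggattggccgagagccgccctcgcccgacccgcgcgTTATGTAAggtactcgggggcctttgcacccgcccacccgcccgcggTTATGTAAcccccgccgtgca
Arntl: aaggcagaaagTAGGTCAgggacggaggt
The E-box, bound by BMAL1 with CLOCK, began at position -166 from a start site of Per1 and at -60 from that of Cry1. Both D-boxes of Per3, the motif bound by DBP and its relatives, lay upstream of the start, at -205 and -158. The REV-ERB and ROR core in Arntl lay at position 31, inside an exon of Arntl.

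Searched on both strands, CACGTG was found in 2 members and in 7.15% of 32851 windows of that length. A variant, CACGTT, overlapping no other motif here, was found in 3 members (Cry1, Cry2 and Nr1d1) and in 4.68% of windows. The D-box, searched as TTATGTAA or TTACGTAA, was found in 1 member and 1.06% of windows, and TAGGTCA in 1 member and 2.61%. The cyclic AMP response element TGACGTCA was found in 0 of the 9 members and in 1.79% of windows, within these 300 bases only. These matches are letters in a window and show no binding.

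All 10 members were expressed in every library, and all 10 passed the filter of a mean of at least 10 normalized counts. Coordinates below are from GENCODE M21 on GRCm38, and the files' own build is not given in the sources used here. Fold values between performers are ratios of mean normalized counts, and those between tissues are taken from the fitted log2 difference. Differences are given as high minus low of log2(normalized count + 1), called log2 differences, and were tested with limma across all genes, and a gene is said to have passed at a Benjamini-Hochberg adjusted p below 0.05.

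**Figure D1:**
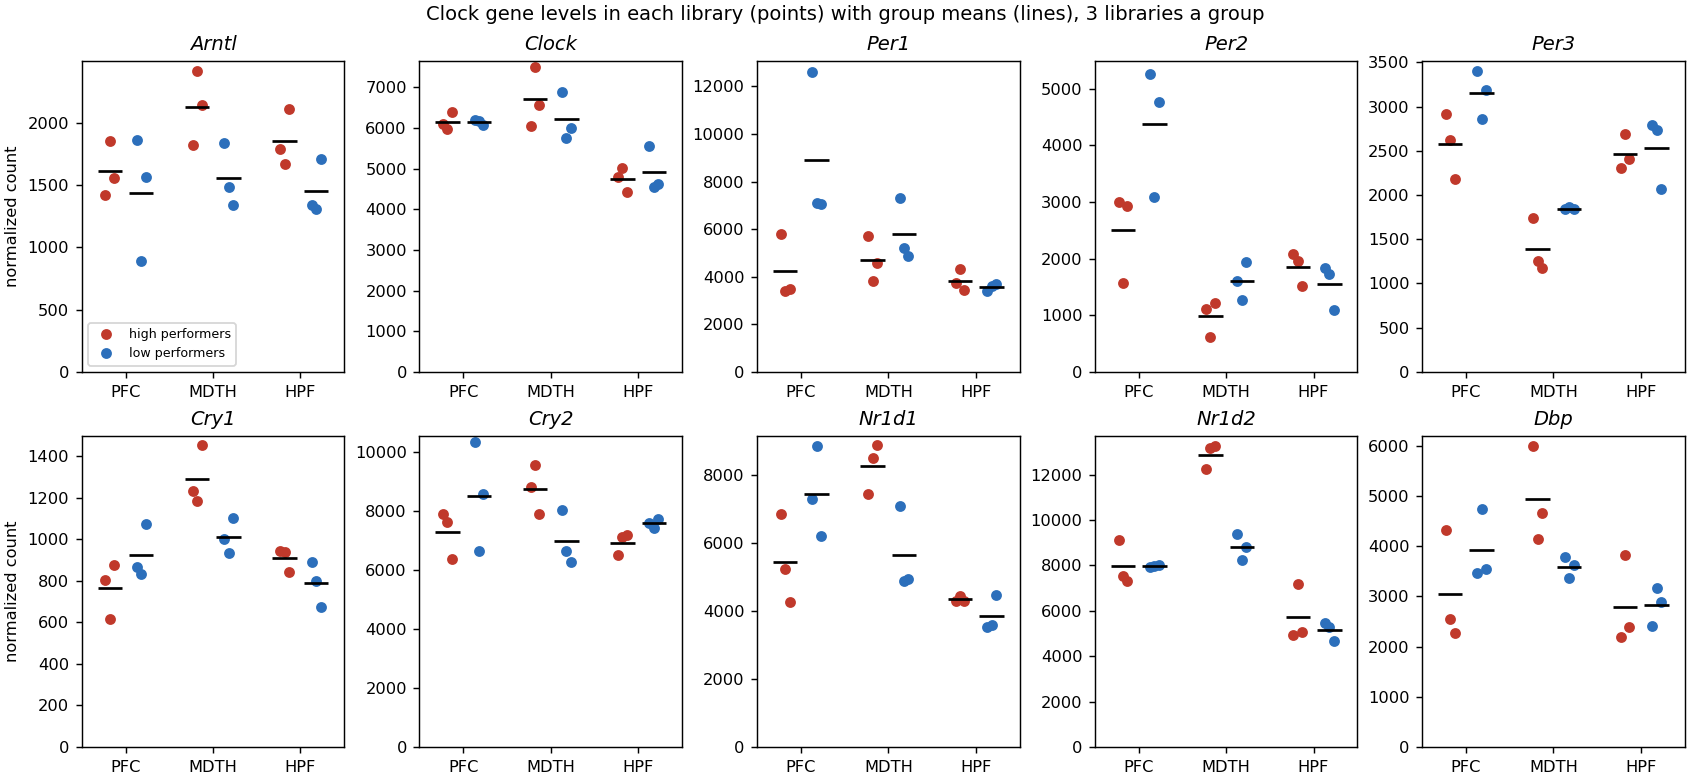
Normalized counts (vertical axes, from 0) of the 10 clock genes in PFC, MDTH and HPF. Each point is 1 library, red for high and blue for low performers, and lines are means of 3. Per1 and Per2 in PFC lay higher in all low than in all high libraries, and Nr1d2 in MDTH ran from 12229 to 13259 in high and from 8219 to 9390 in low performers.

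Between high and low performers of PFC Per1 and Per2 had the largest differences among the members, with lower levels in high performers, but 0 of 10 members passed by limma, against 5.85% of all 17991 genes tested. At an unadjusted p below 0.05 there were 2, Per1 and Per2, and the share of all genes at that cut was not counted. Their groups were also the only 2 of 10 members whose levels did not overlap, against 30.9% of all genes. Without any 1 library the count stayed at 0. The median log2 difference of the members was -0.29, beside -0.01 for all genes, and their median size was 0.29 beside 0.27. The part of the thalamic, hippocampal and microglial markers that separated the PFC groups was not tested.

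Per1 (ENSMUSG00000020893, chromosome 11, 69095217 to 69109960, plus strand) encodes a repressor of the loop whose transcription also responds to neuronal activity. Its PFC levels were 5782, 3385 and 3493 normalized counts in high and 12601, 7112 and 7048 in low performers. Library 130 was the highest, and the highest of the high performers, number 44, stayed under every low performer. The means were 4220 ± 1354 and 8920 ± 3188 (SD, n = 3 each), 2.11-fold higher in low performers. The log2 difference was -1.07 (SE 0.29, 95% interval -1.75 to -0.39, limma adjusted p = 0.0763). Over the alternatives the adjusted p ran from 0.00820, in a fit of all 18 libraries together, to 0.225, so the fit of all 18 libraries was the one in which Per1 passed. Of the libraries low in choroid plexus markers, both high performers (3385 and 3493) stood below the single low performer (12601).

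Per2 (ENSMUSG00000055866, chromosome 1, 91415982 to 91459324, minus strand), a repressor of the same family, held 3001, 1567 and 2932 normalized counts in high and 5259, 3091 and 4765 in low performers of PFC. All 3 low libraries lay above all 3 high libraries, though 3091 and 3001 lay close. Its log2 difference was -0.83 (SE 0.30, 95% interval -1.53 to -0.13, limma adjusted p = 0.149), 1.75-fold higher in low performers. Per3 (ENSMUSG00000028957, chromosome 4, 151003652 to 151044665, minus strand), the third Period gene, was at 2918, 2623 and 2184 in high and 3402, 2859 and 3183 in low performers. The groups overlapped for Per3, with a log2 difference of -0.30 (limma adjusted p = 0.213).

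The other members in PFC had intervals that reached or crossed 0. Nr1d1 (ENSMUSG00000020889, chromosome 11, 98767932 to 98775333, minus strand), the first REV-ERB, measured 6851, 5248 and 4272 normalized counts in high and 7297, 8866 and 6204 in low performers. Number 44 alone put the groups in overlap, and the log2 difference was -0.46 (95% interval -0.92 to 0.00, limma adjusted p = 0.207). Dbp (ENSMUSG00000059824, chromosome 7, 45705088 to 45710203, plus strand), a D-box activator and the classic clock output, measured 4328, 2556 and 2279 against 3470, 4747 and 3547. Its highest values in both groups were in library 44 and in low 2, which also held the most choroid plexus marker RNA in PFC. Apart from these 2 and low 3, the PFC libraries held 2556 and 2279 in high and 3470 in low performers. The part of choroid plexus RNA in the Dbp values was not tested.

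Clock (ENSMUSG00000029238, chromosome 5, 76209868 to 76304792, minus strand) was the steadiest member in PFC, from 5963 to 6404 normalized counts over the 6 libraries, a log2 difference of 0.00 (95% interval -0.16 to 0.16). Arntl (ENSMUSG00000055116, chromosome 7, 113207465 to 113314126, plus strand), its partner, ran from 1420 to 1856 in high and from 892 to 1858 in low performers, the lowest being low 2. The log2 difference of Arntl was 0.22 (limma adjusted p = 0.650), and -0.09 without that library. Cry1 (ENSMUSG00000020038, chromosome 10, 85131700 to 85185064, minus strand) and Cry2 (ENSMUSG00000068742, chromosome 2, 92403646 to 92434043, minus strand) encode partners of the PER proteins. Cry1 ran from 618 to 877 in high and from 833 to 1076 in low performers, and Cry2 from 6388 to 7923 and from 6664 to 10350. The groups overlapped for both, with log2 differences of -0.28 for Cry1 and -0.21 for Cry2. Nr1d2 (ENSMUSG00000021775, chromosome 14, 18204054 to 18239127, minus strand), the second REV-ERB, averaged 7977 ± 990 and 7975 ± 32.3 (SD, n = 3 each).

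MDTH differed in which members stood apart. Both REV-ERB genes, Nr1d1 and Nr1d2, were higher in high performers and passed, 2 of 10 members against 25.0% of all 17861 genes tested and 12.5% in that direction, and 0 members passed in the other direction. At an unadjusted p below 0.05 there were 8. The share of all genes at that cut was not counted, and it can be no smaller than the 25.0% above. The count of members that passed after adjustment became 4 without high 1 or without low 1 and 1 without high 3, low 2 or low 3. The groups did not overlap for 6 members against 44.2% of all genes: Cry1, Nr1d1, Nr1d2 and Dbp higher in high performers, and Per2 and Per3 lower. The members' median log2 difference was 0.34 beside 0.00 over all genes, and their median size 0.44 beside 0.35.

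Nr1d2 in MDTH was at 12229, 13153 and 13259 normalized counts in high and at 9390, 8219 and 8807 in low performers. The lowest high library exceeded the highest low library by more than either group's whole range. Nr1d2 rose from 8805 ± 586 in low to 12880 ± 567 in high performers (SD, n = 3 each), 1.46-fold, with a log2 difference of 0.55 (SE 0.08, 95% interval 0.37 to 0.73, limma adjusted p = 0.00563). It passed without each of the 6 libraries in turn, at adjusted p from 0.00811 to 0.0292.

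Nr1d1 in MDTH was at 7444, 8514 and 8884 normalized counts in high and at 7097, 4887 and 4949 in low performers. Low library 130 lay close under high library 44, and the other two low libraries lay far below. The gene rose 1.47-fold (log2 difference 0.57, SE 0.16, 95% interval 0.20 to 0.94, limma adjusted p = 0.0371). The call was lost without high 2 (adjusted p = 0.103), high 3 (0.104), low 2 (0.110) or low 3 (0.121), and over all alternatives adjusted p ran from 0.00773 to 0.121. Exons of Nr1d1 share 263 of 3077 bases with Thra, a thyroid hormone receptor gene on the opposite strand, and the use of strand in counting is not given. Thra ran the other way in MDTH, at 14657 to 19086 in high and 22016 to 24919 in low performers.

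Dbp in MDTH was at 6006, 4138 and 4668 normalized counts in high and at 3778, 3371 and 3620 in low performers. Every high library exceeded every low one, and number 44 was again the highest. The log2 difference was 0.44 (SE 0.14, 95% interval 0.12 to 0.77, limma adjusted p = 0.0558), over the threshold, and without high 2 it passed (adjusted p = 0.0415, within 0.0415 to 0.177 over all alternatives). Of the exon bases of Dbp, 539 of 2993 are shared with Sphk2, a sphingosine kinase gene on the opposite strand, which was at 1139 to 1433 in high and 1632 to 1834 in low performers. Reads of these overlapping genes may be split uncertainly.

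The Period genes in MDTH were lower in high performers, as in PFC, and none of the 3 passed by limma in the fit of the 6 libraries. Per2 was at 1108, 618 and 1220 normalized counts in high and at 1607, 1261 and 1935 in low performers, a log2 difference of -0.74 (95% interval -1.40 to -0.09, limma adjusted p = 0.0909). Library 88 was the lowest for Per2 here, as it was in PFC. Per3 was at 1737, 1254 and 1171 against 1838, 1862 and 1840, the low performers having an SD of only 13.2 (n = 3). For Per3 the log2 difference was -0.43 (95% interval -0.79 to -0.08, limma adjusted p = 0.0755). Per3 passed without high 1 (-0.61, adjusted p = 0.00945) and in the fit of all 18 libraries (0.0385), within 0.00945 to 0.193 over all alternatives. Per1 was at 5728, 3800 and 4577 against 7288, 5202 and 4864, with overlap and a log2 difference of -0.30 (limma adjusted p = 0.303).

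Among the activators and Cryptochromes in MDTH, Arntl was at 1818, 2417 and 2142 normalized counts in high and at 1840, 1486 and 1335 in low performers. Only low library 130 reached the high group, and the log2 difference was 0.46 (95% interval 0.09 to 0.82, limma adjusted p = 0.0693). Without high 1 the adjusted p for Arntl was 0.0452 and without low 1 it was 0.0372, within 0.0372 to 0.200 over all alternatives. Cry1 was at 1235, 1183 and 1455 against 1003, 936 and 1101 (log2 difference 0.35, limma adjusted p = 0.0728). Cry2 averaged 8767 ± 831 in high performers, above 6994 ± 917 in the low group (SD, n = 3 each), and its log2 difference was 0.33 (limma adjusted p = 0.0781, and 0.0328 without low 1, within 0.0328 to 0.222 over all alternatives). Clock had a log2 difference of 0.11 (95% interval -0.15 to 0.36). How far the regional markers that differed between the MDTH groups, some higher and some lower in high performers, bear on these values was not tested. In such bulk tissue, fewer cells of a type and less RNA per cell cannot be told apart.

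In HPF the sums of hippocampal, cortical, endothelial, suprachiasmatic, and choroid plexus and ependymal markers also separated the groups, and their part was not tested. Of these, the cortical sum was lower in high performers and the others were higher. No member passed, 0 of 10 by limma against 0.0166% of all 18082 genes tested. Arntl alone had an unadjusted p below 0.05, a cut at which the share of all genes was not counted. The members' median log2 difference was 0.11 beside -0.01 over all genes, with a median size of 0.13 beside 0.18. The Period genes did not separate: Per1 was at 3718, 4326 and 3437 normalized counts in high and 3381, 3622 and 3712 in low performers. The 95% interval of its log2 difference ran from -0.15 to 0.34. Per2 was at 2084, 1965 and 1509 against 1827, 1735 and 1099, a log2 difference of 0.28 (95% interval -0.24 to 0.79).

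Arntl in HPF was at 1788, 1670 and 2105 normalized counts in high and 1339, 1303 and 1710 in low performers. Low library 179 overlapped the high group, and the log2 difference was 0.36 (95% interval 0.03 to 0.69, limma adjusted p = 0.350). Cry2 was the 1 member of 10 whose groups did not overlap, against 20.0% of all genes, at 6502, 7123 and 7181 in high and 7595, 7449 and 7756 in low performers. Its log2 difference was small at -0.13 (limma adjusted p = 0.484). Dbp was at 2183, 3819 and 2396 in high and 2404, 3176 and 2884 in low performers, its highest value being in library 44, the one high in choroid plexus markers. Nr1d2 was also highest in that library, at 7191, beside 4658 to 5451 in the other 5. The REV-ERB gene Nr1d1 stayed within 4293 to 4432 in high performers and ran from 3525 to 4466 in the low group. The remaining members, Clock, Per3 and Cry1, and the 3 just described had log2 differences from -0.05 to 0.22 with intervals across 0.

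**Figure D2:**
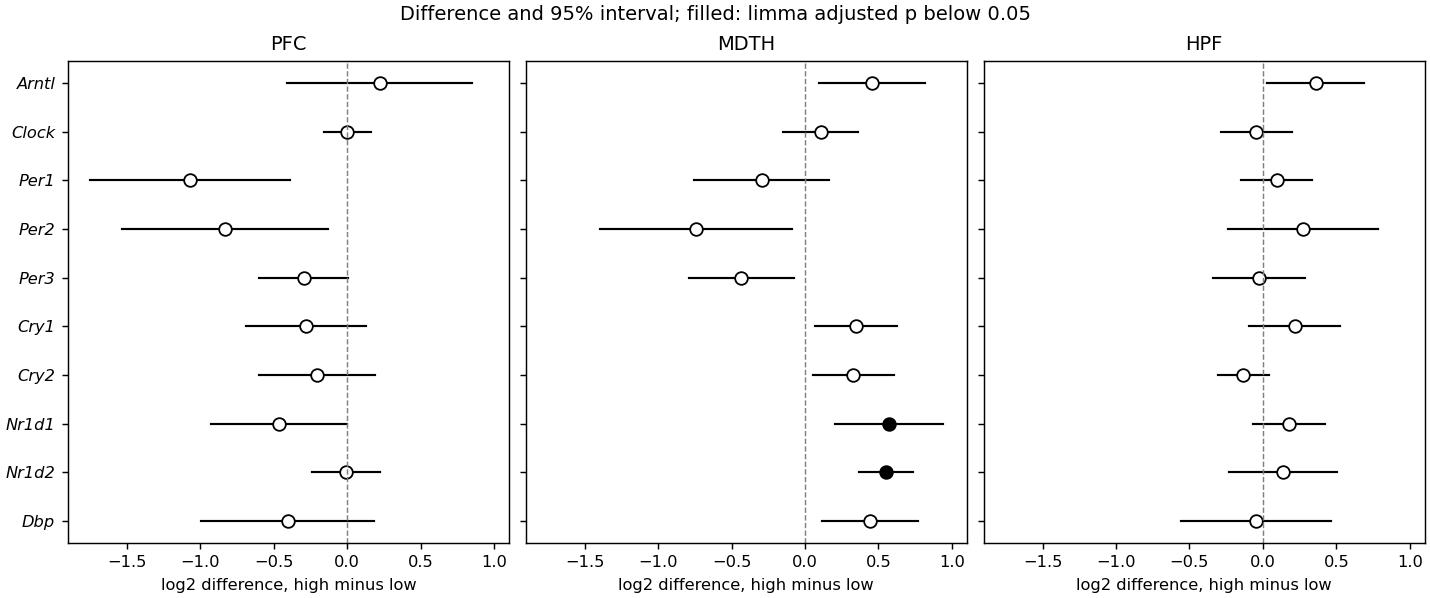
Log2 difference between high and low performers (horizontal axes, high minus low) for the 10 clock genes in PFC, MDTH and HPF, 3 against 3 libraries each. Points are estimates, bars 95% intervals, and filled points have a limma adjusted p below 0.05. The filled points are Nr1d1 (0.57) and Nr1d2 (0.55) in MDTH.

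The performer differences of separate tissues were compared with each other through interaction terms, in the fit of all 18 libraries. For MDTH against PFC, Nr1d1 passed, 1 of 10 members against 3.41% of all genes. Its difference in MDTH exceeded that in PFC by 1.03 on the log2 scale (SE 0.25, 95% interval 0.50 to 1.56, limma adjusted p = 0.0320). Every Nr1d1 library in the high group of MDTH lay above the low group, whereas 2 of 3 high libraries in PFC lay below all low ones. With the library-name number as a block 3 members passed, adding Cry1 (adjusted p = 0.0428) and Cry2 (adjusted p = 0.0452), beside 1034 of all 18254 genes.

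For HPF against PFC, Per1 passed, 1 of 10 members against 9.14% of all genes. The Per1 difference in HPF exceeded that in PFC by 1.16 on the log2 scale (SE 0.34, 95% interval 0.44 to 1.89, limma adjusted p = 0.0443). For MDTH against HPF 0 of 10 passed by limma (19.0% of all genes), and with the block 1 did, Cry2 (adjusted p = 0.0235). At an unadjusted p below 0.05 there were 3 members, and the share of all genes at that cut was not counted. With single libraries left out, the Nr1d1 interaction passed in 10 of 18 cases and the Per1 interaction in 6 of 18, as follows. Nr1d1 was lost without PFC high 2, high 3, low 1 or low 2 (adjusted p from 0.0563 to 0.0838) and without MDTH high 2, high 3, low 2 or low 3 (0.0763 to 0.10). Per1 was lost without PFC high 2, high 3 or low 1 (0.0772 to 0.110), MDTH high 3, low 2 or low 3 (0.0509 to 0.0557) or any HPF library (0.0644 to 0.0958).

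Averaged over performers, the tissues differed in the members' levels. Per2 was 2.62-fold higher in PFC, at 3436 ± 1352 normalized counts, than in MDTH, at 1292 ± 449, and HPF lay between at 1703 ± 356 (SD, n = 6 each). Per3 was lowest in MDTH as well, at 1617 ± 317, beside 2862 ± 428 in PFC and 2500 ± 285 in HPF. Nr1d2 ran in the order MDTH (10843 ± 2291), PFC (7976 ± 626) and HPF (5427 ± 908), each step passing.

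Between MDTH and PFC 4 of 10 members passed, against 40.7% of all genes (20.3% higher in MDTH and 20.4% higher in PFC). They were Per2 and Per3 higher in PFC, and Cry1 (1.37-fold) and Nr1d2 (1.34-fold) higher in MDTH. The limma adjusted p was 0.00231 for Cry1 and 0.00108 for Nr1d2. Dbp, at a log2 difference of 0.31 (limma adjusted p = 0.160), passed with the library-name block (0.34, adjusted p = 0.0338). Between HPF and PFC 5 of 10 passed, against 45.5% of all genes, and all 5 were lower in HPF, as were 23.7% of all genes. The log2 differences were -0.94 for Per2, -0.68 for Per1, -0.62 for Nr1d1, -0.57 for Nr1d2 and -0.35 for Clock.

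Between MDTH and HPF 7 of 10 members passed, against 58.1% of all genes (29.1% higher and 29.0% lower in MDTH). Nr1d2 (log2 difference 0.99), Nr1d1 (0.73), Dbp (0.60), Per1 (0.48), Cry1 (0.44) and Clock (0.42) were higher in MDTH, and Per3 (-0.65) was lower. The Per1 call was lost without MDTH high 1 (limma adjusted p = 0.0653), MDTH low 1 (0.0696) or HPF high 3 (0.0551). Per2, lower in MDTH by a log2 difference of -0.45 (limma adjusted p = 0.0875), passed with the library-name block (-0.51, adjusted p = 0.0158). Arntl and Cry2 passed in none of the 3 tissue comparisons by limma, with means over 6 libraries of 1525, 1840 and 1652 normalized counts for Arntl and of 7924, 7881 and 7268 for Cry2 in PFC, MDTH and HPF. The order of a member's levels in neighbouring tissues that did not pass is thus not set beyond the spread.

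The members also varied unequally between libraries of one tissue. Over the 6 PFC libraries the highest level was 3.72 times the lowest for Per1 and 3.36 times for Per2, but 1.07 times for Clock. In MDTH the ratio was largest for Per2, 3.13, and in HPF it was 1.28 for Per1 and 1.90 for Per2.

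Read library by library, the high performers kept parts of one order across tissues. Number 44 was the highest of its group for Per1 in all 3 tissues: Per1 in 44 exceeded that in 88 by 1.71-fold in PFC, 1.51-fold in MDTH and 1.26-fold in HPF. Number 88 was the highest for Arntl and 44 the lowest in all 3 tissues, by 1.31-fold, 1.33-fold and 1.26-fold. The full order of 44, 88 and 165 was the same in all 3 tissues for 4 of 10 members, against 11.4% of 16960 genes. These were Arntl (88, 165, 44 from high to low), Per1 (44, 165, 88), Per3 (44, 88, 165) and Cry1 (165, 44, 88), the genes of the promoter stretches above.

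The same number was highest in all 3 tissues for 5 of 10 members (27.8% of all genes), Dbp being the fifth, and lowest for 6 of 10 (26.6%), Per2 and Cry2 added. Per2 was lowest in 88 each time, and 165 exceeded it by 1.87-fold in PFC, 1.97-fold in MDTH and 1.38-fold in HPF. Number 44 is also the number with high choroid plexus markers in PFC and HPF, at 146698 and 162093, and the highest in MDTH at 11200. With 44 set aside, a comparison chosen after the data were seen, the order of 88 and 165 was the same in all 3 tissues for 6 of 10 members, against 42.0% of all genes. Arntl, Per3 and Cry2 were higher in 88, and Per1, Per2 and Cry1 in 165. The members are parts of one loop and the tissues appear to share numbers, so these counts are a description.

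**Figure D3:**
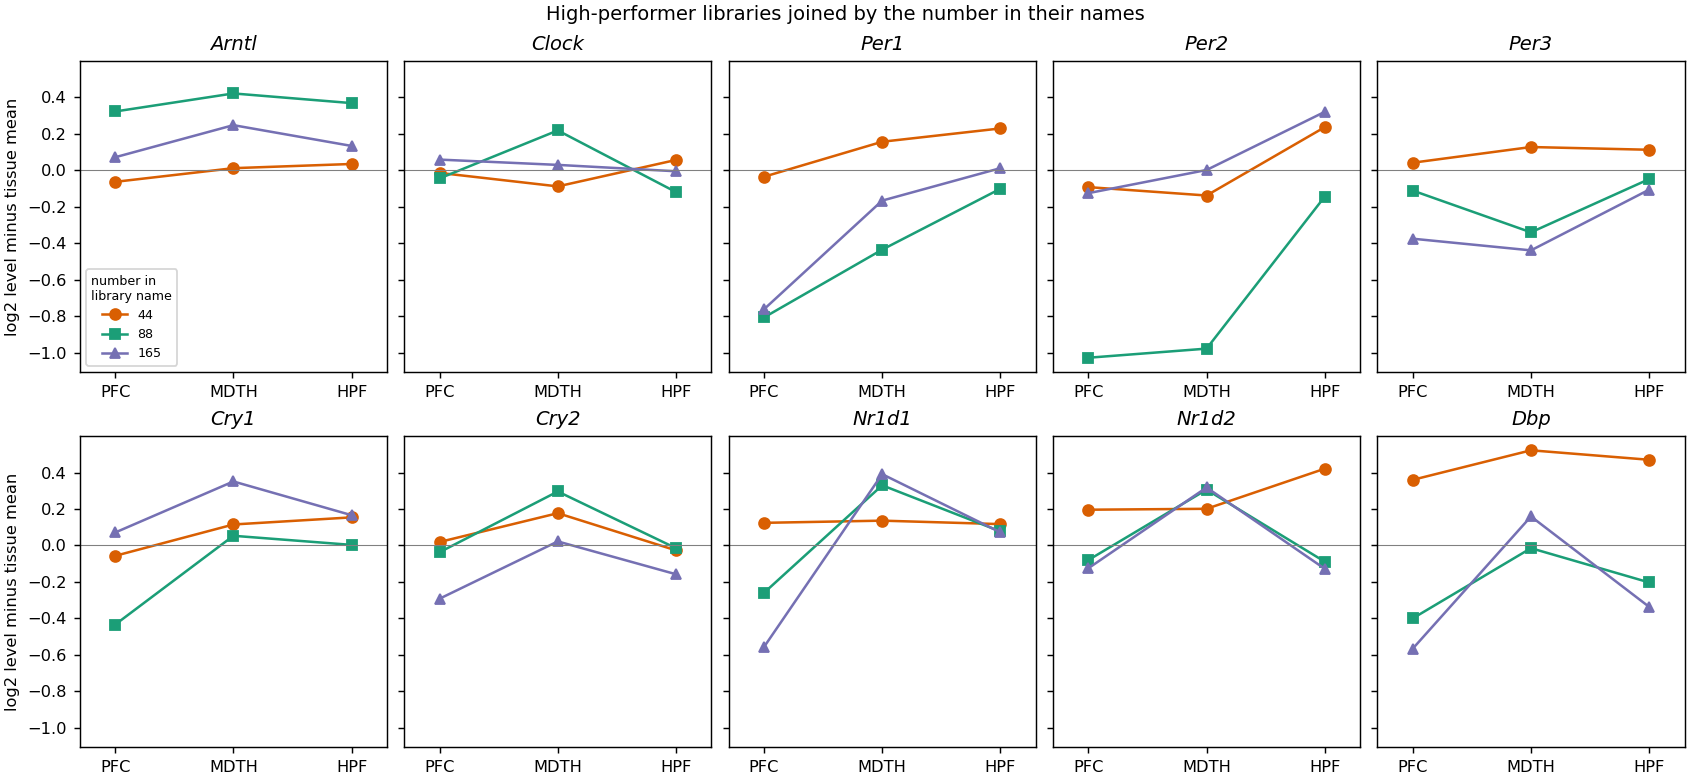
Log2 level minus the mean of its tissue (vertical axis) for the high-performer libraries numbered 44, 88 and 165 in PFC, MDTH and HPF, joined by number. Arntl and Per1 keep their order in all 3 tissues, with 88 highest for Arntl and 44 highest for Per1, while Nr1d1 does not.

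To read each library on 1 scale, the mean log2 deviation from the tissue mean of Dbp, Per1, Per2, Per3, Nr1d1 and Nr1d2 was taken minus that of Arntl and Clock. It is a description of relative levels, not a time. In PFC this contrast was 0.14, -0.59 and -0.48 in high performers 44, 88 and 165, and 0.22, 0.57 and 0.15 in low performers 1 to 3. Numbers 88 and 165 thus lay below 0 and the other 4 libraries above it, but with Dbp minus Arntl alone 130 was at -0.28 and low 3 at -0.003, so that this split did not hold. In MDTH it was 0.21, -0.51 and -0.10 in 44, 88 and 165, and 0.08, 0.08 and 0.24 in 130, 163 and 6. In HPF it was 0.22, -0.21 and -0.09 in 44, 88 and 165, and 0.00, 0.23 and -0.15 in 163, 168 and 179. In every tissue the high performers ran 44, 165, 88 from high to low.

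Group means of the contrast differed by -0.62 in PFC (high -0.31 ± 0.39, low 0.31 ± 0.22, SD, n = 3 each), -0.27 in MDTH and -0.06 in HPF. In PFC the highest high library, at 0.14, lay just under the lowest low library, at 0.15, and in MDTH and HPF the groups overlapped. The high performers spread more widely than the low in PFC and MDTH. In MDTH the contrast averages members of opposite direction: Nr1d1 (log2 difference 0.57), Nr1d2 (0.55) and Dbp (0.44) were higher in high performers. Per1 (-0.30), Per2 (-0.74) and Per3 (-0.43) were lower there. The group differences depend on the genes chosen: with Npas2 added to Arntl and Clock they were -0.49 in MDTH and -0.23 in HPF, and with Dbp minus Arntl alone -0.01 and -0.40. Leaving out the 4 libraries high in choroid plexus markers shifts the other libraries of a tissue by 1 constant and is no check of their order. As no collection time is given, differences in collection time and in performance cannot be told apart in these values.

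Npas2, which can stand in for Clock as the partner of BMAL1 in the forebrain, varied more between tissues than Clock did. It averaged 3331 ± 423 normalized counts in PFC, 2009 ± 848 in MDTH and 1028 ± 269 in HPF (SD, n = 6 each), 3.32-fold lower in HPF than in PFC. In HPF it was at 1222, 1217 and 1343 in high and at 682, 792 and 911 in low performers. The groups lay well apart, yet the gene did not pass (log2 difference 0.67, 95% interval 0.37 to 0.98, limma adjusted p = 0.151). In MDTH it was at 1957, 2920 and 2962 against 2093, 905 and 1219, a log2 difference of 0.96 (95% interval 0.23 to 1.69, limma adjusted p = 0.0619). It passed there in the fit of all 18 libraries (adjusted p = 0.00721), without high 1 (0.0477) and without low 1 (0.0150), within 0.00721 to 0.165 over all alternatives. In PFC the log2 difference of Npas2 was -0.06.

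Other parts of the loop were followed with a list of 25 partners: kinases, ubiquitin ligases, ROR receptors and output factors. In PFC 1 was higher and 2 were lower in high performers, and 22 did not pass (5.85% of all genes passed), with a median log2 difference of -0.04 beside -0.01 over all genes. Fbxw11, a ubiquitin ligase subunit that marks PER proteins for destruction, rose by a log2 difference of 0.41 (limma adjusted p = 0.0212). Bhlhe41 (DEC2), a repressor at E-boxes, fell by 0.90 (limma adjusted p = 0.0460), and Nono, a nuclear protein that binds PER complexes, fell by 0.45 (limma adjusted p = 0.0411). In MDTH 7 were higher and 2 lower, where 12.5% of all genes passed in each direction, 16 did not pass, and the median was 0.23 beside 0.00. Fbxw11 (0.68), the ROR receptor gene Rorb (1.31), the AMP-activated kinase gene Prkaa2 (0.56) and Fbxl21 (0.80), whose product binds CRY proteins, were higher there at limma adjusted p from 0.00398 to 0.0108. Mean levels of Rorb were 7328 (high) and 2996 (low) in MDTH, beside 1355 and 1305 in PFC. For Fbxl21 they were 874 and 500 in MDTH, beside 168 and 146 in PFC. The MDTH low group did not exceed both PFC groups for Fbxw11 (5966, beside 7672 and 5763) or Prkaa2 (3101, beside 4206.5 and 3820). How far the regional markers that separated the MDTH groups bear on the partner genes was not tested. In HPF 0 of 25 passed by limma, the smallest p being those of Npas2 and Bhlhe40 (log2 difference 0.51, limma adjusted p = 0.191), and the median was 0.01.

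Lists of genes that respond to other inputs of the clock were set beside the members. Fos, an immediate-early gene induced by neuronal activity, was at 665, 645 and 752 normalized counts in high and 6786, 5106 and 1586 in low performers of PFC, so its highest library, 130, was also the highest for Per1. Of 12 activity genes 3 were lower in high performers of PFC and 0 higher, and in MDTH 4 of 11 were lower, Sik1, Junb, Arc and Fos. Of all genes 5.85% passed in PFC in either direction, and 12.5% were lower in MDTH. In HPF 0 of 12 passed by limma, and Fos was at 270, 181 and 155 against 603, 472 and 152. The part of activity in the Per1 values was not tested.

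Of 11 glucocorticoid-responsive genes 1 passed in PFC, where 5.85% of all genes did: Pdk4, a kinase of pyruvate metabolism, which fell by 1.08 on the log2 scale (limma adjusted p = 0.0196). In MDTH 0 of 11 passed by limma (smallest p Tsc22d3, log2 difference 0.54, adjusted p = 0.102), and in HPF 0 of 11 did (Mt2, 0.88, adjusted p = 0.248). Of 10 temperature-responsive genes 0 passed in PFC by limma (Hspb1, -1.66, adjusted p = 0.0941) and 0 in HPF (Hspb1, 0.57, adjusted p = 0.430). In MDTH 3 fell, the heat-shock genes Hspa1a (-2.23, limma adjusted p = 0.0140), Hspa1b (-2.49) and Hspa8 (-0.45), 3 of 10 beside 12.5% of all genes. Cirbp, a cold-inducible RNA-binding protein gene with a daily rhythm, was at 2706, 2441 and 1810 in high and 1482, 2571 and 1931 in low performers of PFC. Like Per3, Cirbp ran 44, 88, 165 from high to low among the high performers of all 3 tissues.

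The genes whose levels most resembled Dbp over the 18 libraries, with each tissue's mean removed, were Ciart (Pearson r = 0.897), Angptl2 (0.861), Npcd (0.851), Aqp1 (0.841) and Slc16a6 (0.835). Ranks here are among 14330 genes, with predicted-gene and clone names left out. Ciart encodes a circadian repressor, and Aqp1 is a water channel of the choroid plexus. Ciart was at 1116, 428 and 396 normalized counts in high and at 938, 1364 and 631 in low performers of PFC, highest in low 2 and in library 44, as Dbp was. Over the 14 libraries low in choroid plexus markers, an alternative chosen after the data were seen, r was 0.811 for Ciart (rank 12), 0.779 for Angptl2, 0.724 for Npcd, 0.713 for Aqp1 and 0.709 for Slc16a6. The 5 most alike were then Pcnt, Chtf18, Hr, Tada3 and Faap100. Of the members, Nr1d1 (0.672) and Nr1d2 (0.645) were most like Dbp over 18 libraries, and Arntl was at -0.255. Over the 14 libraries Cry2 was the member most like Dbp (0.725), Nr1d2 and Nr1d1 were at 0.584 and 0.578, and Arntl was at 0.171.

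Most like Arntl were Zfp180 (Pearson r = 0.875), Stum (0.871), Plekha5 (0.858), Dgkz (0.856) and Zfp950 (0.835), and its partner gene Npas2 ranked 35 with r = 0.749. Over the 14 libraries Npas2 ranked 11 with r = 0.884. The member with the lowest r to Arntl was Per3, at -0.437 over 18 libraries. The r of Nr1d1 to Arntl was 0.198 over 18 and 0.824 over 14 libraries. These correlations share the libraries, their depth and, in part, their numbers, and are given as a description. Only tissue means were removed, so they also hold any difference between high and low performers.

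**Figure D4:**
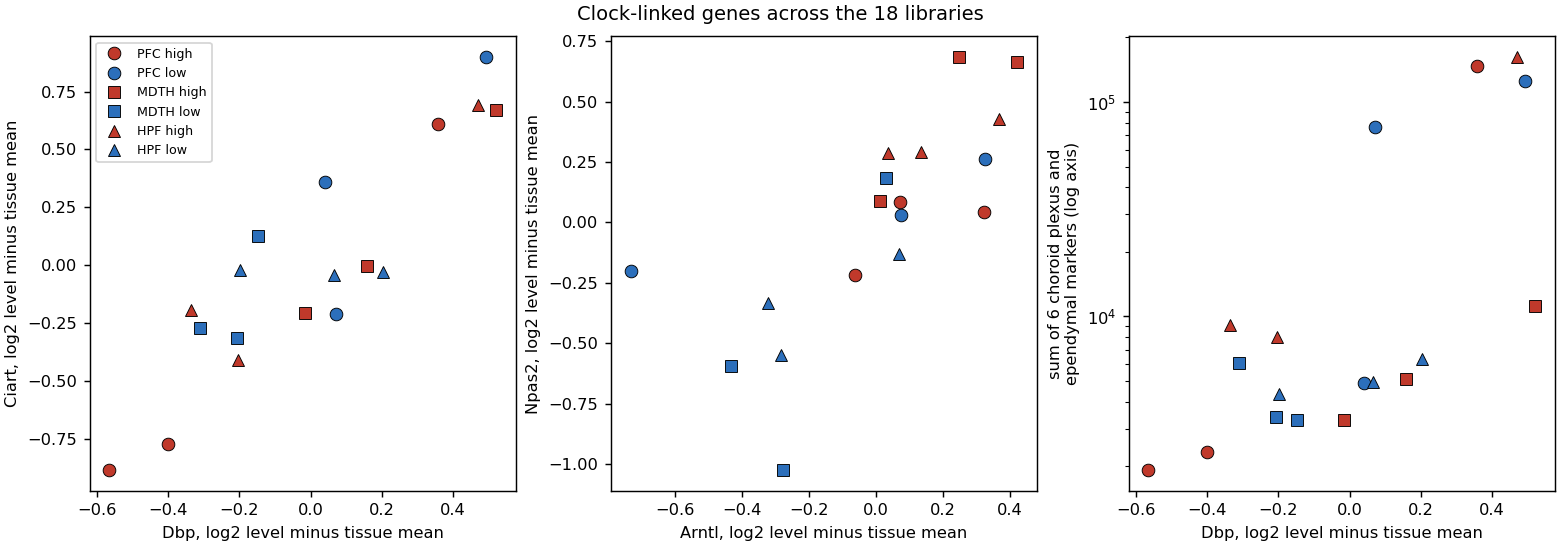
Log2 levels minus tissue means over 18 libraries: Ciart against Dbp (left), Npas2 against Arntl (middle), and the sum of 6 choroid plexus and ependymal markers (log axis) against Dbp (right). Points are libraries, with shape for tissue and red for high, blue for low performers. Ciart follows Dbp (r = 0.897), and 3 of the 4 libraries above 50000 in the right panel are high for Dbp. The fourth, PFC low 3, lies near its tissue mean (0.07), and the highest Dbp value (0.52) is MDTH high 1, with a marker sum of 11200.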

How the data were processed

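RNA from 18 libraries was sequenced after a stranded TruSeq mRNA preparation, per the labels' protocols. The authors deposited 1 normalized signal per gene and library, called normalized counts here, and the submitters' processing notes name STAR, Salmon and DESeq2 without roles. Genome build, gene models and whether counting used strand are not given in the sources used here. All columns matched a sample (0 unmatched). Of 48440 genes, 17137 were at 0 throughout. Within 0.02 of a read, 18.9% to 65.6% of values under 50 were whole reads, so tests that need counts were not run, and depth (most frequent low value taken as 1 read) is an estimate.

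Each tissue was fitted alone with limma 3.58.1 in R 4.3.3 on log2(value + 1), with a mean-variance trend, genes of mean at least 10, two-sided tests and Benjamini-Hochberg adjustment over all genes. That scale understates changes of low genes. Tissue differences and interactions came from 1 fit of all 18 libraries with 6 group means. The fit of each tissue alone was tested on simulated data, and the fit of all 18 libraries was not. Python 3.11.15, pandas 2.3.3, numpy 2.4.6 and matplotlib 3.10.9 were used for the rest. Alternatives were a pseudocount of 10, no filter or one of 50, no trend, rescaling by median of ratios, blocks and leaving out each library. Equal replicate numbers in the titles of high and low libraries did not pair them (r from -0.127 to 0.0923). Numbers in library names paired libraries across tissues, since all 11 pairs had r over 0.1 (0.346 to 0.611), and the block fit used a correlation of 0.356.

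The members and gene lists were chosen with earlier results of these data known. Named genes are all members, up to 4 passing genes per list and tissue (otherwise the 2 of smallest p), Npas2, Fos and Cirbp, and the 5 genes most like Dbp and Arntl, leaving out predicted-gene and clone names. Of the other genes named, Thra and Sphk2 share exon bases with a member, and those most like Dbp over 14 libraries were chosen after the data were seen.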

Additional observations from a re-analysis of the deposited data

Results flagged for a closer look

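The difference in Nr1d1 between high and low performers was in opposite directions in PFC and MDTH. The interaction was 1.03 on the log2 scale (SE 0.25, limma adjusted p = 0.0320), from -0.46 in PFC and 0.57 in MDTH, and of these only the MDTH difference passed on its own. It was 0.87 to 1.21 when single libraries were left out.

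The difference in Per1 between performers was larger in PFC than in HPF. The interaction was 1.16 on the log2 scale (SE 0.34, limma adjusted p = 0.0443), from -1.07 in PFC and 0.09 in HPF, neither of which passed on its own. It was 0.89 to 1.41 when single libraries were left out. Neither interaction passed without the mean-variance trend, at adjusted p of 0.0561 for Nr1d1 and 0.0671 for Per1.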

How the results depend on the processing

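Among differences between performers, 224 of 231 values under other settings and 171 of 198 with 1 library left out kept their direction and their side of the threshold. These values cover all members and Npas2, and most belong to differences that had not passed to begin with. Of the differences that had passed, Nr1d2 in MDTH did so in 7 of 7 other settings and 6 of 6 fits with 1 library left out. Nr1d1 in MDTH did so in 5 of 7 and 2 of 6. The count of members that passed became 1 in PFC in the fit of all 18 libraries (Per1), and 1 in MDTH without the trend, where Nr1d1 was lost (adjusted p = 0.0830). With the title number as a replicate block Nr1d1 in MDTH was lost (0.0870) and Per2 passed there (0.0357). Without the trend 0 members passed in the interactions of MDTH and of HPF with PFC. With the library-name number as a replicate block 3 passed for MDTH against PFC and 1 for MDTH against HPF, and 1 for HPF against PFC; it changed no other call than those given for Dbp and Per2 between tissues. The contrast between performers with Dbp and Arntl alone was -0.40 in HPF, beside -0.06, and -0.01 in MDTH, beside -0.27. With Npas2 added it was -0.23 in HPF and -0.49 in MDTH.

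With 1 library left out, members that passed numbered 0 to 0 in PFC and HPF, 1 to 4 in MDTH, 4 to 5 for MDTH against PFC, 5 to 6 for HPF against PFC, 6 to 8 for MDTH against HPF, and 0 to 2, 0 to 2 and 0 to 1 for the interactions in that order. All directions that turned belonged to differences that had not passed. The PFC difference of Clock was -0.0083 after rescaling, and ran from -0.0288 to 0.0227 with 1 library left out. Those ranges were -0.0897 to 0.44 for Arntl, -0.18 to 0.0547 for Npas2 and -0.11 to 0.0543 for Nr1d2 in PFC. In HPF they were -0.0966 to 0.0495 for Clock, -0.29 to 0.11 for Dbp, -0.0408 to 0.23 for Nr1d2 and -0.17 to 0.0503 for Per3. Between tissues they were -0.0194 to 0.245 for Arntl and -0.0594 to 0.0705 for Cry1 in HPF against PFC, and -0.0879 to 0.0709 for Cry2 in MDTH against PFC. The cause was not tested.

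Over all genes, 1053 passed in PFC, beside 52 without the trend, 2529 in the fit of all 18 libraries, 0 with the title block and 7 to 1306 with 1 library left out (7 without high 3, 9 without low 3, 17 without high 2, 205 without high 1, 278 without low 1). In MDTH 4470 passed, beside 2425 with the title block and 1839 to 4223 with 1 left out. In HPF 3 passed, beside 11 without the filter, 265 in the fit of all 18, 0 with the title block and 0 to 15 with 1 left out. The interaction of MDTH with PFC gave 623, beside 1034 with the block and 278 to 1004 with 1 left out, and that of HPF with PFC 1669, beside 896 to 1818. Depth in reads is an estimate, and the members were at 618 normalized counts or more in every library.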
